A study of Mus musculus with 6 samples.

Results

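The 10 genes described here encode the enzymes that make serine and those that move its carbon through the folate pool: Phgdh, Psat1, Psph, Shmt1, Shmt2, Mthfd1, Mthfd2, Mthfd1l, Aldh1l1 and Aldh1l2. They were picked by symbol, as the textbook enzymes of the pathway, from the 24346 gene symbols of the deposited tables, and all 10 were found there. RNA sequencing had been performed on 6 libraries of 4T1, a mouse mammary carcinoma cell line. WT denotes mock transfected cells, whereas shRNA1 and shRNA3 name cells in which AU021063, a long noncoding RNA, was knocked down with 1 of 2 different hairpins; every group has 2 libraries. The labels name no non-targeting hairpin, no culture conditions and no clone or pool, nor do they state that replicates were grown as separate cultures. The p-values thus reflect the spread among these libraries alone, and that spread may be technical.

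Serine is built in the cytosol from an intermediate of glycolysis. Phgdh oxidises that intermediate, Psat1 adds an amino group taken from glutamate, and Psph removes the phosphate. Serine then gives a carbon to folate, which turns it into glycine, and this step and those that follow exist in both the cytosol and the mitochondria. In mitochondria Shmt2 takes the carbon from serine, Mthfd2 oxidises the carbon on its folate carrier, and Mthfd1l releases it as formate for export. In the cytosol Mthfd1 loads formate back onto folate for the synthesis of purines and thymidylate, and Shmt1 is the cytosolic counterpart of Shmt2. Aldh1l1 in the cytosol and Aldh1l2 in mitochondria burn formyl folate to CO2. Several of these genes are known targets of ATF4, the transcription factor of the amino acid response, and proliferating tumour cells often express the mitochondrial branch strongly.

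The stretches upstream of 4 genes are shown because Phgdh, Psat1, Shmt2 and Mthfd2 were the most abundant of the 10 and were lower with both hairpins. RefSeq sequences on GRCm38.p6 matched 9 of the 10 genes, all except Aldh1l2, in 10 windows, 2 of them for Psat1. Each line gives the 250 bases before a RefSeq transcription start, on the strand of the gene, with CCAAT boxes, read on either strand as CCAAT or ATTGG, in capitals. The windows are chr3:98339970-98340219 (minus strand) for Phgdh, chr19:15925060-15925309 (minus strand) for the upstream one of the Psat1 windows, chr10:127522445-127522694 (minus strand) for Shmt2 and chr6:83317605-83317854 (minus strand) for Mthfd2. The starts of Mthfd2 and Psat1 lie 8304 and 22278 bases inside the gene bounds of GENCODE, those of Phgdh and Shmt2 within 21 bases of them.
Phgdh: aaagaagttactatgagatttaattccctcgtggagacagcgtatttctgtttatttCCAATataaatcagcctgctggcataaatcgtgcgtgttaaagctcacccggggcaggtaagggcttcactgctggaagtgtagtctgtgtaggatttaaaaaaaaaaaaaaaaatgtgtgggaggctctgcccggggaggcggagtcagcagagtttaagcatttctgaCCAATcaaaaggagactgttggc
Psat1: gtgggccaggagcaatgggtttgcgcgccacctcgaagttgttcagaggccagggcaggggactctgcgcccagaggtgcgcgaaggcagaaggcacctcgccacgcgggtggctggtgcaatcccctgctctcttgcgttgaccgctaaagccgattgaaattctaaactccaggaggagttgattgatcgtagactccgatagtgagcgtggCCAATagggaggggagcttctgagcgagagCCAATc
Shmt2: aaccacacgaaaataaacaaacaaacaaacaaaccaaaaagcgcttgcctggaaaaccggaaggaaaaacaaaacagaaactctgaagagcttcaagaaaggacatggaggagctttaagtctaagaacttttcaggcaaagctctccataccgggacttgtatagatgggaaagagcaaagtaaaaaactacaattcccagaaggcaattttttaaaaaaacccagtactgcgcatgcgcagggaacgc
Mthfd2: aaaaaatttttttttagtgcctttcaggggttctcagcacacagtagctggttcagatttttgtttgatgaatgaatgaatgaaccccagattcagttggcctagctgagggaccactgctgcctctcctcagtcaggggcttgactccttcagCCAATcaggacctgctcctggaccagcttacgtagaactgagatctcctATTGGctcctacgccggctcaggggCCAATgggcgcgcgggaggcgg
A CCAAT box was present in 7 of the 10 windows, from 7 of the 9 genes, against 33.8% of all 32851 windows of this length. Mthfd2 held 3, at 96, 47 and 22 bases before its start, counted to the first base of the box. Phgdh and this window of Psat1 held 2 each, and those of Shmt2 and Mthfd1l held none. The other genes with a box were Psph, Shmt1, Mthfd1 and Aldh1l1. Aldh1l1 was barely detected in these libraries, and its start lies 64366 bases inside the gene bounds of GENCODE. The motif was chosen after the sequences were seen. The letters TGATGNAA, the core of the element bound by C/EBP and ATF factors, were in 0 of the 10 windows on either strand, against 3.45% of all windows, and the E-box CACGTG was in 0 against 6.02%. Neither holds a CCAAT box, and their absence says only that these letters are not in these 250 bases.

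All values were taken as FPKM, that is, fragments scaled for transcript length and library size. The unit was inferred and is not written with the deposited values. On that reading, levels of different genes can be set side by side within a library. Totals ran from 560862 to 604022 FPKM per library, and relative depth, read from the ratios of low values, from 86.8% to 105% of WT replicate 1. Among genes averaging 10 FPKM or more, replicates differed by a median of 4.32% to 4.47%. AU021063, the target, read 1.82 and 1.67 FPKM in WT replicates 1 and 2, 1.04 and 0.572 with shRNA1, and was listed at 0.785 and 0 with shRNA3. Its knockdown groups overlapped, and with a mean below 1 FPKM it was not tested. Of the markers fixed for mammary carcinoma, Krt8 and Krt18 were at 263 to 587 FPKM in every library, whereas Epcam and Cdh1 were between 1.22 and 5.14 FPKM. All but Cdh1, which did not pass in any comparison, moved with the groups. Epcam was 2.11-fold higher with shRNA1 (limma, adjusted p = 0.00266) and 1.55-fold higher with shRNA3 (0.0184). Krt7 was 1.44-fold higher with shRNA1 (0.00263), and Krt8 was 1.62-fold lower with shRNA3 (1.42e-05). Krt18 was 1.13-fold higher with shRNA1 (0.0188) and 1.10-fold lower with shRNA3 (0.0281). The part of these markers in the results below was not tested. Of 13 markers of other cells, 11 stayed below 1 FPKM in every library, Ptprc, Cd3e, Kdr, Hba-a1, Hbb-b1 and Plin1 were at 0 throughout, and the stromal receptor genes Pdgfra and Pdgfrb were at 17.9 FPKM or above. The summed level of these 13 was 70.2 and 69.5 FPKM in WT and 58.0 to 61.7 in the knockdown libraries, and its part was not tested either. Nearly all of that sum was Pdgfra and Pdgfrb. Pdgfra was 1.19-fold lower with shRNA1 (limma, adjusted p = 0.00433) and 1.29-fold lower with shRNA3 (3.79e-04), and Pdgfrb did not pass against WT. In a bulk culture, fewer cells of a kind and less RNA per cell cannot be told apart.

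Relative to WT, 8 of the 9 tested genes fell over both hairpins and 0 rose. Calls were made at a Benjamini-Hochberg adjusted p under 0.05 (limma on log2(FPKM + 1)). A change over both hairpins sets the average of the shRNA1 and shRNA3 group means against WT, so it need not hold with each hairpin. Over all 11079 genes tested, 50% were called in this comparison with 25.9% lower and 24.1% higher. Aldh1l1, below the filter of a mean of 1 FPKM, was the gene not tested. The median log2 change of the 9 was -0.45, against -0.01 over all genes. The largest falls were those of the mitochondrial genes Mthfd2 and Shmt2, and the exception was Mthfd1l, also mitochondrial. The 2 knockdown groups were not alike. Fitted as 1 group, so that their difference counts as spread, only Shmt2 and Mthfd2 passed. These were 2 of the 9 genes, with 1513 of all genes called in place of 5538. Each hairpin is therefore given on its own. With shRNA1 6 genes fell and 1 rose, against 18.4% lower and 17.6% higher over all genes (36% called in either direction). With shRNA3 7 fell and 0 rose, against 27.8% lower and 27.4% higher (55.2% called). Both comparisons share the WT libraries. After rescaling the libraries to equal totals, higher genes made up 34.3% of all calls over both hairpins in place of 48.2%, 34.9% in place of 49.0% with shRNA1, and 37.6% in place of 49.7% with shRNA3.

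**Figure D1:**
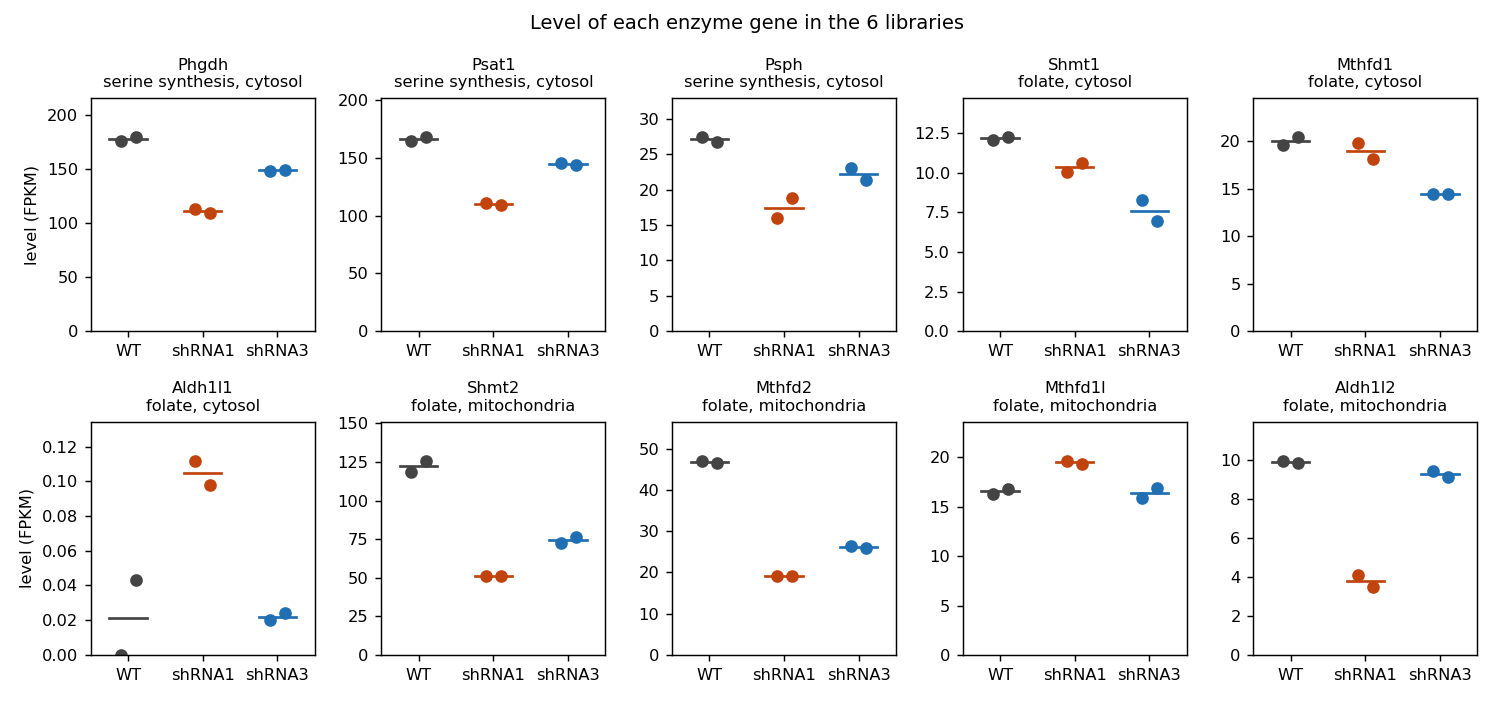
Level of each of the 10 genes in FPKM (y axes from 0, a scale per gene) in the WT, shRNA1 and shRNA3 libraries, with points for libraries and lines for group means of n = 2. The panels of Phgdh, Psat1, Psph, Shmt2, Mthfd2 and Aldh1l2 step down from WT over shRNA3 to shRNA1, Shmt1 and Mthfd1 are lowest with shRNA3, and Aldh1l1 stays at or below 0.112 FPKM.

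Phgdh, the entry enzyme of serine synthesis (chromosome 3, 98313170 to 98339990, minus strand of mm10, the same assembly as GRCm38), was the most abundant of the 10 in WT, at rank 409 of 11079 tested genes. It was at 176 and 180 FPKM in WT replicates, 113 and 110 with shRNA1, and 149 and 149 with shRNA3. The 3 groups did not overlap, with shRNA1 lowest. Phgdh was 1.60-fold lower with shRNA1 (log2 change -0.67 ± 0.04 SE, adjusted p = 1.57e-05) and 1.19-fold lower with shRNA3 (-0.25 ± 0.04, adjusted p = 0.00101). The difference between the hairpins was itself called (log2 0.42 higher with shRNA3, adjusted p = 1.82e-04).

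Psat1, the transaminase of the next step (chromosome 19, 15904678 to 15947337, minus strand), followed the same order. Its libraries read 164 and 168 FPKM in WT replicates, 111 and 109 with shRNA1, and 145 and 144 with shRNA3, again without overlap. It was 1.51-fold lower with shRNA1 (log2 change -0.59 ± 0.04 SE, adjusted p = 2.61e-05) and 1.15-fold lower with shRNA3 (-0.20 ± 0.04, adjusted p = 0.00311). Psph, the phosphatase that ends the route (chromosome 5, 129765558 to 129787449, minus strand), was at 27.5 and 26.7 FPKM in WT replicates, 16.0 and 18.8 with shRNA1, and 23.0 and 21.3 with shRNA3. Its shRNA1 libraries were the farthest apart of the 3 groups, yet the groups did not overlap. Psph was 1.56-fold lower with shRNA1 (log2 change -0.62 ± 0.08 SE, adjusted p = 7.86e-04) and 1.22-fold lower with shRNA3 (-0.28 ± 0.08, adjusted p = 0.0170). The shRNA3 call ended without WT replicate 1 (adjusted p = 0.0743) or shRNA3 replicate 2 (0.106), with a range of 0.00515 to 0.106 over all settings.
Psph overlaps 452 bases of Cct6a on the opposite strand. The kit was stranded, but no source used here tells if strand was used in quantification, and reads of the pair may be mixed. Cct6a was at means of 122 FPKM for WT, 117 with shRNA1 and 94.1 with shRNA3, and its part in the values of Psph was not tested.

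All 3 genes of serine synthesis thus fell with each hairpin. Their summed level was 368 and 375 FPKM in WT replicates, 240 and 237 with shRNA1, and 317 and 315 with shRNA3, most of it from Phgdh and Psat1. In the WT libraries Phgdh lay above Psat1 without overlap. With shRNA1 the pair overlapped (110 to 113 FPKM for Phgdh, 109 to 111 for Psat1).

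Shmt2, which takes the carbon from serine in mitochondria (chromosome 10, 127517123 to 127522444, minus strand), was at 119 and 126 FPKM in WT. The shRNA1 libraries read 51.2 and 51.3 FPKM and the shRNA3 libraries 72.7 and 76.7, so that the 3 groups stood clear of each other. The fall was 2.39-fold with shRNA1 (log2 change -1.24 ± 0.05 SE, adjusted p = 2.08e-06) and 1.64-fold with shRNA3 (-0.71 ± 0.05, adjusted p = 1.95e-05). Its hairpin difference was 0.53 on the log2 scale (adjusted p = 1.60e-04). Shmt2 shares 32 bases with Ndufa4l2 on the opposite strand, whose mean stayed at or below 0.0455 FPKM in each group.

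Mthfd2, the mitochondrial dehydrogenase and cyclohydrolase (chromosome 6, 83305691 to 83325908, minus strand), gave 47.1 and 46.6 FPKM in WT replicates, 19.2 and 19.2 with shRNA1, and 26.5 and 25.9 with shRNA3. Replicates nearly coincided and the groups were far apart. Mthfd2 fell 2.44-fold with shRNA1 (log2 change -1.24 ± 0.05 SE, adjusted p = 1.53e-06) and 1.79-fold with shRNA3 (-0.82 ± 0.05, adjusted p = 8.14e-06). The 2 hairpins differed by 0.43 (adjusted p = 3.31e-04). Mthfd2l, its close mitochondrial relative, was at a mean of 7.70 FPKM in WT and did not pass the test in any of the 3 comparisons with WT (log2 change over both hairpins -0.0013, adjusted p = 0.993).

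Aldh1l2, the mitochondrial formyl folate dehydrogenase (chromosome 10, 83487450 to 83534140, minus strand), differed most between the hairpins. It was at 9.98 and 9.86 FPKM in WT replicates, 4.12 and 3.49 with shRNA1, and 9.42 and 9.13 with shRNA3. The shRNA1 libraries were far below all others, and those of shRNA3 lay just below WT. Aldh1l2 fell 2.61-fold with shRNA1 (log2 change -1.19 ± 0.08, adjusted p = 2.94e-05), while its change with shRNA3 did not pass (-0.09 ± 0.08, adjusted p = 0.372). The difference between the hairpins was called (1.10 ± 0.08, adjusted p = 5.95e-05). Its call over both hairpins therefore rested on shRNA1. Aldh1l2 overlaps 1056 bases of D10Wsu102e on the opposite strand, a gene at means of 16.7 FPKM for WT, 15.5 with shRNA1 and 12.2 with shRNA3.

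Mthfd1l, the mitochondrial formate synthase (chromosome 10, 3973118 to 4167081, plus strand), did not follow the other mitochondrial genes. Its values were 16.3 and 16.8 FPKM in WT replicates, 19.7 and 19.4 with shRNA1, and 15.9 and 16.9 with shRNA3. The shRNA1 libraries were the highest, and those of WT and shRNA3 overlapped. Mthfd1l was 1.18-fold higher with shRNA1 (log2 change 0.23 ± 0.05, adjusted p = 0.0149), a call that ended after rescaling the libraries to equal totals (0.0621) and without WT replicate 1 (0.0758), shRNA1 replicate 1 (0.0699) or shRNA1 replicate 2 (0.0521), with a range of 0.00728 to 0.0758 over all settings. With shRNA3 the log2 change was -0.01 ± 0.05 (adjusted p = 0.841). The hairpin difference of -0.24 (adjusted p = 0.00967) passed, but not without shRNA3 replicate 1 (-0.20, adjusted p = 0.0602; range 0.00698 to 0.0602).

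**Figure D2:**
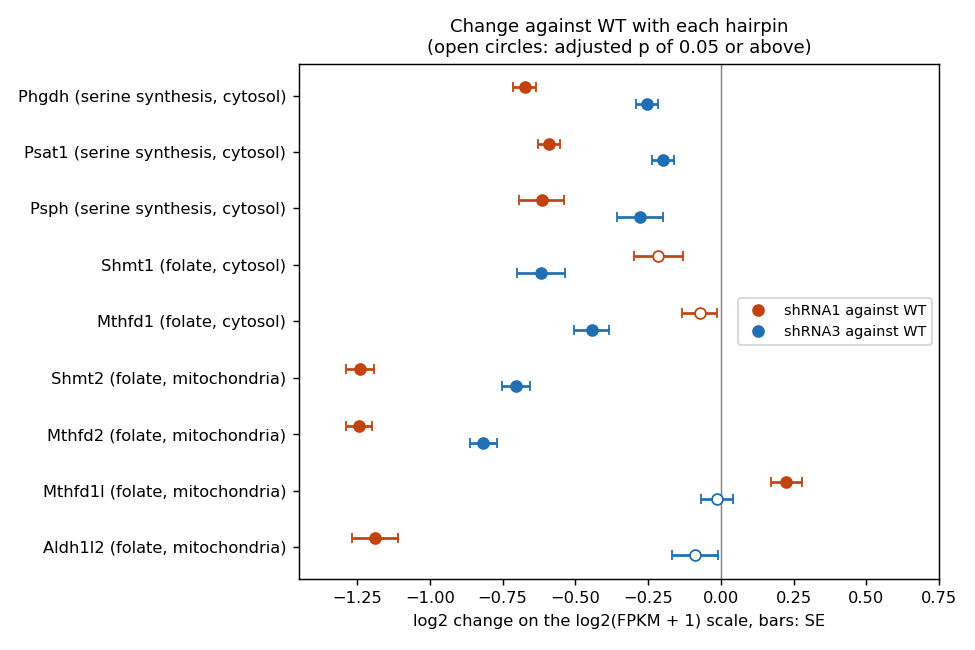
Log2 change against WT on the log2(FPKM + 1) scale (x axis) of the 9 tested genes with shRNA1 and with shRNA3, as estimates with SE bars, filled where adjusted p is under 0.05. The serine synthesis genes, Shmt2, Mthfd2 and Aldh1l2 lie farther left with shRNA1, and the cytosolic Shmt1 and Mthfd1 with shRNA3. Both sets of points share the WT libraries.

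The cytosolic folate genes showed the opposite order of the hairpins. Mthfd1, the trifunctional enzyme that handles formyl, methenyl and methylene folate (chromosome 12, 76255298 to 76319803, plus strand), was at 19.6 and 20.4 FPKM in WT replicates, 19.8 and 18.1 with shRNA1, and 14.4 and 14.5 with shRNA3. The shRNA1 libraries overlapped with WT, and those of shRNA3 were lower than all others. Mthfd1 was 1.39-fold lower with shRNA3 (log2 change -0.44 ± 0.06, adjusted p = 5.16e-04), and its change with shRNA1 did not pass (-0.07 ± 0.06, adjusted p = 0.372). The hairpins differed by -0.37 (adjusted p = 0.00214).

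Shmt1, the cytosolic serine hydroxymethyltransferase (chromosome 11, 60788104 to 60811718, minus strand), was at 12.1 and 12.3 FPKM in WT replicates, 10.1 and 10.6 with shRNA1, and 8.29 and 6.93 with shRNA3. The groups did not overlap, with shRNA3 lowest. It was 1.60-fold lower with shRNA3 (log2 change -0.62 ± 0.08, adjusted p = 5.08e-04). With shRNA1 the change of -0.21 ± 0.08 did not pass (adjusted p = 0.0787), but passed after rescaling the libraries to equal totals (0.0275) and without shRNA3 replicate 1 (0.0392) or replicate 2 (0.0388), with a range of 0.0275 to 0.260 over all settings. The difference between the hairpins was -0.40 (adjusted p = 0.00625). Shmt1 shares 184 bases with Smcr8 on the opposite strand, a gene at means of 9.92 FPKM for WT, 7.52 with shRNA1 and 8.96 with shRNA3.

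Aldh1l1, the cytosolic formyl folate dehydrogenase (chromosome 6, 90486427 to 90600203, plus strand), was barely detected. It was listed at 0 and 0.043 FPKM in WT replicates, 0.112 and 0.098 for shRNA1, and 0.020 and 0.024 with shRNA3. Taking the lowest value as 1 fragment and allowing for relative depth, these values were multiples within 0.01 of a whole number: 0 and 2 fragments in WT, 5 and 4 for shRNA1, and 1 and 1 for shRNA3. A count of 0 allows up to 3 fragments, or 0.0638 FPKM in WT replicate 1, for counting error only. No fold is given at this depth, and the ratio of Aldh1l2 to Aldh1l1 is not given either.

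Between the hairpins, 9 of the 9 tested genes were called, against 42.5% over all genes. The 6 that were higher with shRNA3 were Phgdh, Psat1, Psph, Shmt2, Mthfd2 and Aldh1l2, and the 3 that were lower were Shmt1, Mthfd1 and Mthfd1l (22% and 20.5% over all genes). Set by compartment, 3 of 4 mitochondrial genes fell over both hairpins (median log2 change -0.81), 3 of 3 serine synthesis genes (-0.45) and 2 of 2 tested cytosolic folate genes (-0.34), against 25.9% lower over all genes in that comparison. With shRNA1 the medians were -1.21, -0.62 and -0.14, and with shRNA3 -0.40, -0.25 and -0.53. In the same order, 3 of 4, 3 of 3 and 0 of 2 fell with shRNA1, against 18.4% lower over all genes. With shRNA3 2 of 4, 3 of 3 and 2 of 2 fell, against 27.8%. The summed level of the 4 mitochondrial genes was 192 and 199 FPKM in WT replicates, 94.2 and 93.3 with shRNA1, and 124 and 129 with shRNA3. That of the 3 cytosolic folate genes was 31.6 and 32.7, 30.0 and 28.9, and 22.7 and 21.4 FPKM.

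Ratios within a library set each mitochondrial gene against its cytosolic partner. Shmt2 over Shmt1 was 9.85 and 10.3 in WT, whereas the shRNA1 libraries gave 5.09 and 4.82 and those of shRNA3 8.77 and 11.1. The shRNA1 libraries were far below WT, and those of shRNA3 lay on either side of it, where Shmt2 was 1.64-fold and Shmt1 1.60-fold lower. Mthfd2 over Mthfd1 was 2.41 and 2.28 in WT, against 0.972 and 1.06 for shRNA1 and 1.84 and 1.79 for shRNA3. This ratio was lower in all 4 knockdown libraries and close to 1 with shRNA1. Mthfd1l over Mthfd1 moved the other way, from 0.835 and 0.822 in WT to 0.994 and 1.07 with shRNA1 and 1.11 and 1.17 with shRNA3. In an exact two-sided permutation test of the log2 ratios, 4 knockdown against 2 WT libraries, p was 0.267, 0.133 and 0.0667 for these 3 ratios (0.267, 0.200 and 0.200 with Benjamini-Hochberg adjustment). The smallest p this design allows is 0.0667, so none could pass 0.05. The test pools the 2 hairpins, so the p of 0.267 for Shmt2 over Shmt1 does not speak to shRNA1 alone.

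**Figure D3:**
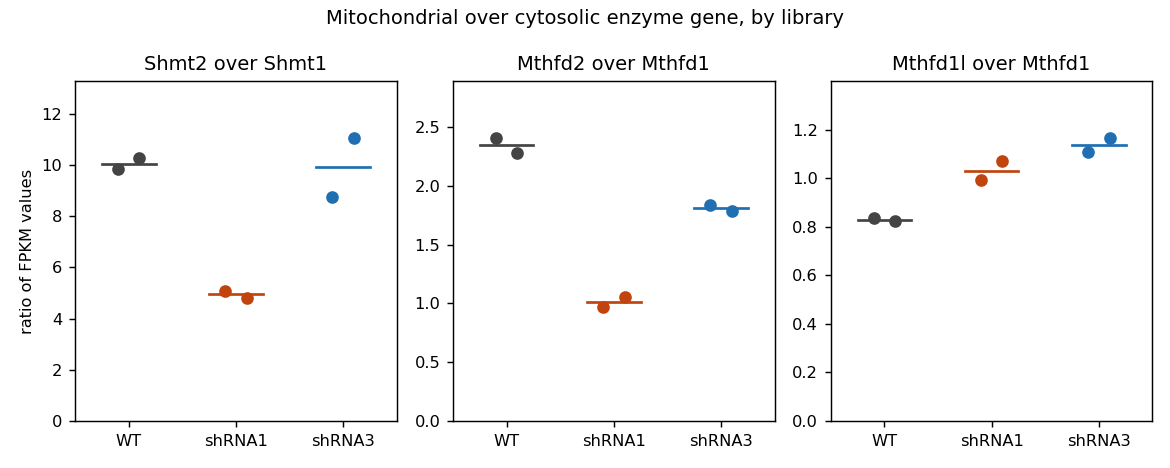
Ratio of the FPKM value of a mitochondrial enzyme gene to that of its cytosolic partner (y axes from 0) in each library of WT, shRNA1 and shRNA3, with lines for group means of n = 2. Shmt2 over Shmt1 is near 5 in the shRNA1 libraries only, and Mthfd1l over Mthfd1 is above the WT value of 0.835 in all 4 knockdown libraries.

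The order of the levels changed with shRNA1. In WT the genes ranked Phgdh, Psat1, Shmt2, Mthfd2, Psph, Mthfd1, Mthfd1l, Shmt1, Aldh1l2 and Aldh1l1, and no pair of neighbours overlapped between its 2 libraries each. With shRNA1 the libraries of Mthfd2, Psph, Mthfd1 and Mthfd1l all lay between 16.0 and 19.8 FPKM, where in WT these genes had spanned 16.3 to 47.1 FPKM. With shRNA3 Mthfd2 stayed above Psph without overlap, and Mthfd1l (15.9 and 16.9 FPKM) stood above Mthfd1 (14.4 and 14.5 FPKM), the reverse of their order in WT.

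Of the regulators often named for this pathway, Atf4 was lower with both hairpins and to a like extent. Atf4 was at 385 and 387 FPKM in WT replicates, 209 and 206 with shRNA1, and 205 and 195 with shRNA3. It fell 1.86-fold with shRNA1 (log2 change -0.89, adjusted p = 4.73e-06) and 1.93-fold with shRNA3 (-0.94, adjusted p = 2.13e-06), and its hairpin difference did not pass (-0.05, adjusted p = 0.335). The shRNA3 libraries of Atf4 lay just below those of shRNA1. Phgdh, Psat1, Psph, Shmt2, Mthfd2 and Aldh1l2 were higher with shRNA3, and Shmt1, Mthfd1 and Mthfd1l were lower. Trib3, the pseudokinase of the series title and an ATF4 target, was lower with shRNA1 than with shRNA3, the order of the serine synthesis genes. Its levels were 25.4 ± 1.16 and 61.2 ± 1.72 FPKM (mean ± SD, n = 2). These are RNA levels, and the part of Atf4 or Trib3 in the levels of the enzyme genes was not tested. Myc, at 61.7 to 66.5 FPKM in all libraries, did not pass in any comparison with WT. Nfe2l2 rose by 0.12 on the log2 scale over both hairpins (adjusted p = 0.0221), a call that 8 of 16 alternative settings ended, among them leaving out WT replicate 1 (0.0720), WT replicate 2 (0.116), shRNA1 replicate 2 (0.0572) or shRNA3 replicate 2 (0.0585), with a range of 0.0204 to 0.311.

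Other genes around the pathway moved in both directions. These lists were drawn up by function with earlier results of these data known. Their counts over both hairpins stand beside 25.9% lower, 24.1% higher and 50% called over all genes. Of the 15 genes named from them as called, only Gcsh, Ahcyl1 and Sptlc1 passed with the knockdown libraries as 1 group; the other 12 had adjusted p from 0.0633 to 0.689 there. Of 11 tested genes of folate uptake, storage and use, 5 fell and 0 rose over both hairpins (median log2 change -0.14), a share called near that of all genes. Tyms, the thymidylate synthase, fell from 12.8 ± 0.68 FPKM to 8.21 ± 0.12 with shRNA3 (log2 change -0.58, adjusted p = 2.78e-04), and was at 11.4 ± 0.75 with shRNA1 (-0.15, adjusted p = 0.118). Its hairpin difference was called (-0.43, adjusted p = 0.00215), in the direction of the cytosolic Mthfd1 and Shmt1 and the mitochondrial Mthfd1l. Over all genes 20.5% were called lower with shRNA3 than with shRNA1. Slc25a32, the mitochondrial folate carrier, fell by 0.39 over both hairpins (adjusted p = 0.0156), but not without WT replicate 1 (0.117) without the filter on low values (0.0558) or with 1 knockdown group (0.0700). Slc46a1, a proton-coupled folate transporter, fell by 0.45 (adjusted p = 0.0143), but not without WT replicate 2 (0.0990) or with 1 knockdown group (0.0633). The ranges over all settings were 0.00804 to 0.117 for Slc25a32 and 0.00590 to 0.0990 for Slc46a1. Slc19a1 and Fpgs were among the 6 that did not pass.

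Of 6 tested genes of glycine cleavage and of mitochondrial serine and glycine carriers, 3 rose and 2 fell (median 0.03), against 24.1% higher and 25.9% lower over all genes. Gcsh, the lipoyl carrier protein of glycine cleavage, fell by 0.70 (adjusted p = 6.03e-04), and Amt, the aminomethyltransferase of the same complex, rose by 0.60 (adjusted p = 3.83e-04, but 0.0769 with 1 knockdown group). Gldc, the decarboxylase of the complex, was at a mean of 0.0345 FPKM in WT and was not tested. Slc25a38, a mitochondrial glycine carrier, fell by 0.39 (adjusted p = 0.00837). This call ended without WT replicate 2 (0.0652) or with 1 knockdown group (0.0702, range 0.00260 to 0.0702). The change of Slc25a38 with shRNA1 alone did not pass (-0.30, adjusted p = 0.0559). In the methionine cycle 2 of 7 tested genes rose and 2 fell (median -0.06), near the 50% called over all genes. Mat2a, which makes S-adenosylmethionine, fell from 35.2 ± 0.34 FPKM to 30.4 ± 0.88 with shRNA1 and 14.9 ± 1.02 with shRNA3. Ahcyl1 and Ahcyl2, relatives of the adenosylhomocysteine hydrolase, rose by 0.40 (adjusted p = 8.49e-05) and 0.32 (adjusted p = 0.00382). The change of Ahcyl2 with shRNA1 alone did not pass (0.12, adjusted p = 0.222).

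Of 8 purine synthesis genes 4 fell and 3 rose (median -0.12), against 25.9% and 24.1% over all genes. Adsl fell by 0.57 (adjusted p = 1.51e-04) and Gart, which uses formyl folate, by 0.33 (adjusted p = 0.00158), whereas Paics, the most abundant of the list at 159 ± 5.92 FPKM in WT replicates, rose by 0.23 (adjusted p = 0.00168). Gart was at 16.8 ± 0.87 FPKM with shRNA1 and 11.3 ± 0.63 with shRNA3, against 17.7 ± 0.08 in WT. With shRNA1 alone the changes of Gart (-0.07, adjusted p = 0.426) and Paics (0.13, adjusted p = 0.0544) did not pass. Among 7 tested enzymes that use or break down serine and glycine, 5 fell and 1 rose (median -0.22), against 25.9% and 24.1% over all genes. Sptlc1, a subunit of the enzyme that joins serine to palmitoyl-CoA, fell by 0.52 (adjusted p = 1.01e-04), and the serine racemase Srr by 0.26 (adjusted p = 0.00392). Gcat, a mitochondrial enzyme of glycine and threonine metabolism, went opposite ways: it rose from 25.8 ± 0.70 FPKM to 32.2 ± 0.77 with shRNA1 (adjusted p = 0.00421) and fell to 14.9 ± 0.76 with shRNA3 (adjusted p = 2.81e-05). Cbs, Sds, Gnmt and Tdh did not reach the filter.

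**Figure D4:**
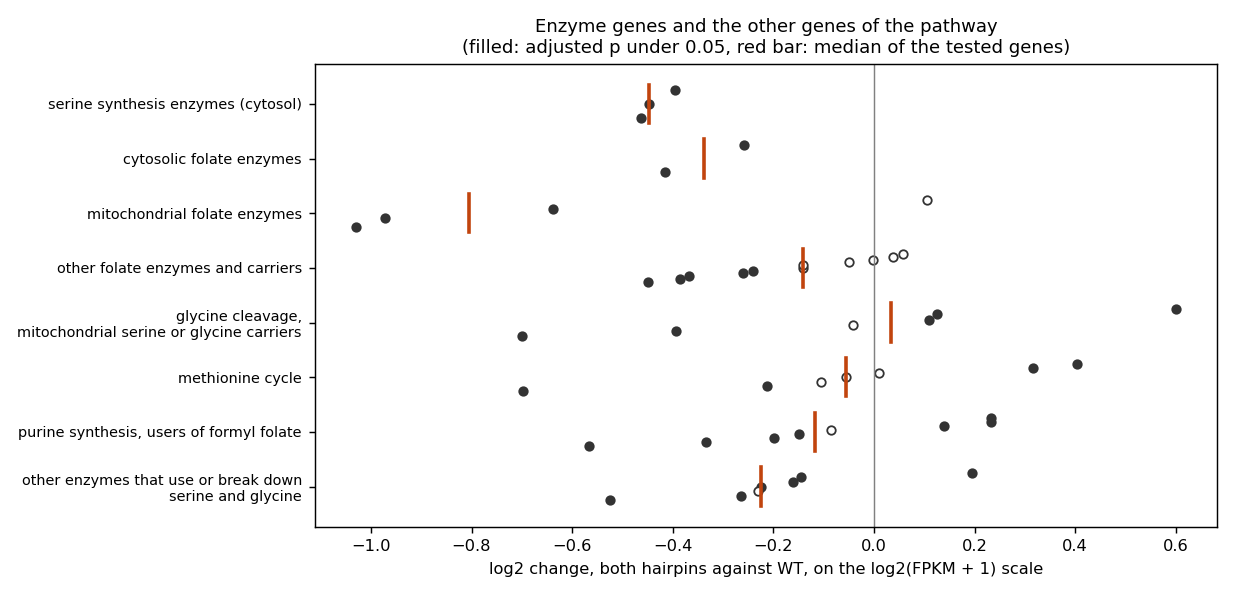
Log2 change over both hairpins against WT (x axis, log2(FPKM + 1) scale) of every tested gene of the serine and folate enzymes and of 5 further lists of the pathway, filled where adjusted p is under 0.05, with red bars for medians. The mitochondrial folate enzymes have the lowest median (-0.81), and the medians of the 5 further lists lie between -0.22 and 0.03.

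The genes nearest to 2 of the enzymes in profile were sought among 8847 genes averaging 5 FPKM or more that are not among the 10, by Euclidean distance over the 6 libraries of log2(FPKM + 1) values centred on WT. For Phgdh these were Zfp202 (distance 0.11), Golga5 (0.14) and Tnfrsf19 (0.14), a receptor of the TNF family. Psat1 stood at 0.14 from Phgdh, and the median distance over all genes ranked was 1.06. For Mthfd2 they were Trp53, the gene of p53 (0.19), Acox2, a peroxisomal oxidase (0.20), and Chac1, a glutathione-degrading enzyme and ATF4 target (0.25), with Shmt2 at 0.19 and a median of 2.11. Chac1 was at 35.3 and 43.0 FPKM in WT replicates, 16.2 and 17.2 with shRNA1, and 21.3 and 22.5 with shRNA3. These distances describe 6 libraries in 3 groups.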

How the data were processed

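Total RNA of 6 libraries had been prepared with a stranded mRNA kit, per the labels' protocols. For every library the authors deposited a table that pairs gene symbols with values. The unit is not written there and was taken as FPKM, because Cufflinks 2.2.1 stands in the submitters' processing notes (beside TopHat2 2.0.13, Bowtie2 2.2.3, SAMtools 0.1.19 and mm10, without roles) and the deposited values are not whole and sum to no common total. The sources used here give neither the annotation nor the strand setting nor how multiply mapped reads were handled. FPKM is relative to the mapped total, so higher values of abundant genes depress the rest. Groups came from the sample titles.

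Values were set to log2(FPKM + 1), a scale that understates changes of low genes, and genes averaging 1 FPKM or more were kept (11079). Folds are ratios of group means in FPKM. With limma 3.58.1 in R 4.3.3, 3 group means were estimated from all 6 libraries (trended prior variance, 3 residual and 4.96 prior degrees of freedom), two-sided, with Benjamini-Hochberg adjustment over all genes. On simulated data for both hairpins against WT (11079 genes, 200 changed) the fit recovered 82.1% of changes of 0.5, and 3.11% of its calls were unchanged genes. There few genes changed, both hairpins carried the same change and the noise was independent between libraries. In the data the hairpin groups differed at many genes, so these rates cannot be carried over to the calls above. The genes, lists, tests and alternatives were chosen with earlier results of these data known. The naming rule took the 10 enzymes, 3 regulators, AU021063, Trib3, up to 3 called genes of each other list whose change over both hairpins was largest, and the 3 nearest profiles of Phgdh and of Mthfd2; genes named besides these (Mthfd2l, Slc19a1, Fpgs, Gldc, Cbs, Sds, Gnmt, Tdh, overlapping genes) were picked after their values were seen. Coordinates are from GENCODE mouse release M21 on GRCm38. Python 3.11.15 with pandas 2.3.3, NumPy 2.4.6 and matplotlib 3.10.9 was used for the rest. Alternatives were other pseudocounts, filters and scalings, a replicate block, no trend, 1 knockdown group and leaving out each library.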

Additional observations from a re-analysis of the deposited data

Results flagged for a closer look

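Each of the 9 tested genes differed in level between the shRNA1 and shRNA3 libraries by the test of the difference itself (limma, shRNA3 minus shRNA1). The labels name no clone or pool, so a hairpin and the cells that carry it cannot be told apart. The log2 differences were 0.42 for Phgdh, 0.39 for Psat1, 0.34 for Psph, 0.53 for Shmt2, 0.43 for Mthfd2 and 1.10 for Aldh1l2, which were higher with shRNA3. They were -0.40 for Shmt1, -0.37 for Mthfd1 and -0.24 for Mthfd1l, which were lower with shRNA3. Over all genes 42.5% were called in this comparison. The difference of Mthfd1l was -0.20 without shRNA3 replicate 1 and did not pass there. The difference of Psph did not pass without shRNA3 replicate 1 (0.29, adjusted p = 0.0656; range over all settings 0.00464 to 0.0656).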

How the results depend on the processing

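With the knockdown libraries as 1 group, the calls over both hairpins went from 8 to 2 of the 9 enzyme genes and from 5538 to 1513 of all genes; the 6 enzyme genes that lost their call had adjusted p from 0.0757 to 0.274. Of 549 values recomputed for the enzyme genes, over 36 comparisons of a gene, 528 kept their direction and their side of the threshold. Many of them could not change direction. Other filters, a replicate block, no trend and 1 knockdown group leave the log2 change as it was. So does leaving out a library that is not in the comparison. The change of Mthfd1l with shRNA3, near 0, turned positive with quantile normalization (0.0197) and without WT replicate 2 (0.00579) or shRNA3 replicate 1 (0.0264), with a range of -0.0548 to 0.0264 when each library was left out. Quantile normalization also made a call of Mthfd1l over both hairpins (0.14, adjusted p = 0.0354; range 0.0354 to 0.543). Leaving out 1 library gave 8 to 8 calls of enzyme genes over both hairpins, 6 to 8 for shRNA1, 6 to 7 for shRNA3 and 7 to 9 between the hairpins, and 3939 to 5089, 2709 to 3749, 4831 to 6058 and 3228 to 4653 of all genes. Titles number the replicates 1 and 2 in each group, but the deviations of equal numbers correlated at 0.01, -0.07 and 0.20. The numbers were therefore not taken as pairs. With a replicate block 8, 7, 7 and 9 enzyme genes were called, the same counts as without it. Over all genes the block gave fewer calls than the main fit in each of these comparisons. Aldh1l1 was too low to be tested. The ratio of Aldh1l2 to Aldh1l1 was planned and not run.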
